A study of Arabidopsis thaliana with 6 samples.

Results

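Transposable element (TE) transcripts of an Arabidopsis thaliana triple mutant, ddm1 rdr6 pol V, were set against those of both double mutants that carry 2 of its 3 mutations, ddm1 rdr6 and ddm1 pol V. Models of replicate A of the triple mutant and of the 2 double mutants were joined into loci where they shared 1 bp or more of exon on the same strand. The 3 libraries held 343 of the 829 models of the series and formed 157 loci, against 344 loci over all 6 libraries. All plants were ecotype Columbia, and poly(A) RNA came from immature flower buds (inflorescence stages 1 to 12). Growth was at 22 °C under days of 16 h. Full-length PCR-cDNA was sequenced on an Oxford Nanopore MinION, and the libraries of wt, ddm1, both double mutants and replicate A were amplified with 14 cycles and run together in round 1. Replicate B of the triple mutant, run alone and deeper in round 2 after 13 cycles, entered no locus class and is given beside the results as a second library of that genotype. All 3 genotypes compared carry the ddm1 mutation, so every contrast is between plants that lack DDM1. The labels give no allele names and do not say how many plants a library holds.

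Each genotype had 1 library in round 1, so no difference had a replicate check, no test between genotypes was made, and intervals cover counting error only. The files held 91 models in replicate A, 107 in ddm1 rdr6 and 145 in ddm1 pol V, at 80, 92 and 127 loci. The number that ends each model name was read as its cluster reads, with a minimum of 10. The summed cluster reads were 2317 for replicate A, 3128 for ddm1 rdr6, 4303 for ddm1 pol V and 17106 for replicate B. Totals of whole libraries are not known from the files. Where a library lacks a model at a locus, transcripts may still have been present in fewer than 10 reads. The genes AT5G66750 (DDM1), AT3G49500 (RDR6) and AT2G40030 (the largest Pol V subunit) overlapped no model, so the genotypes were not checked through them.

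DDM1 is a chromatin remodeler that lets DNA methyltransferases reach nucleosome-bound heterochromatin, and TEs lose methylation and become transcribed without it. RDR6 copies RNA into double-stranded RNA, from which short interfering RNAs are made, and in ddm1 plants it acts on transcripts of reactivated TEs. Pol V is a plant-specific RNA polymerase whose noncoding transcripts guide DNA methylation to sites that match small RNAs. The triple mutant lacks both activities in a ddm1 background, and the double mutants lack 1 of them each.

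The sequences shown first belong to a set of related TEs with more reads in the triple mutant, chosen after their values were seen. A group of 4 loci with close copies, AT1TE52795, AT2TE25540, AT3TE45975 and AT4TE08355, held 3 of the 12 loci found in the triple mutant only. Their models ended at the same short stretch, shown as the last 60 bases of the replicate A model of each, 5′ to 3′, with the 32 bases that all share in capitals.
AT1TE52795, chr1:16012658-16012717, minus strand: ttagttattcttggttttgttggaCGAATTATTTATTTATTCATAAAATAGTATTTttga
AT2TE25540, chr2:6263378-6263437, minus strand: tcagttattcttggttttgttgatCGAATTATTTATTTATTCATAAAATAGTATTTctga
AT3TE45975, chr3:11055842-11055901, plus strand: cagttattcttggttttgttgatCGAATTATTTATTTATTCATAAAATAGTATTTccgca
AT4TE08355, chr4:1644180-1644239, minus strand: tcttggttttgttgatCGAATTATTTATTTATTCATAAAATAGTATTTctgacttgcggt
A shorter model of the locus AT3TE53850, found in replicate A and in neither double mutant, ended at the same 32 bases.
AT3TE53850, chr3:13169133-13169192, plus strand: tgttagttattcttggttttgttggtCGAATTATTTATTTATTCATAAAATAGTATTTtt
Coordinates follow TAIR10 as deposited, and bases were read from TAIR10.1. The last intron of these transcripts also matched, as the 40 bases around its ends show, with the first and last 2 intron bases in capitals.
AT3TE45975 donor, chr3:11055479-11055518, plus strand: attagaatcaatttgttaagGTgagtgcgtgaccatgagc
AT3TE53850 donor, chr3:13168773-13168812, plus strand: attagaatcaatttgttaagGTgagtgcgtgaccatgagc
AT3TE45975 acceptor, chr3:11055713-11055752, plus strand: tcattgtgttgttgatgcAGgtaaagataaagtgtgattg
AT3TE53850 acceptor, chr3:13169007-13169046, plus strand: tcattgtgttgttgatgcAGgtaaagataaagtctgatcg
The donor windows had the same letter at 40 of 40 positions and the acceptor windows at 38 of 40. Both introns were 234 nt long.

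Of these related loci, AT3TE53850 had more reads in the triple mutant than in either double mutant, 3 had a model in the triple mutant only, and AT2TE25540 had more reads in ddm1 pol V. AT3TE53850, which overlaps the pseudogene AT3G32195, had 93 reads in replicate A, 21 in ddm1 rdr6, 34 in ddm1 pol V and no model in ddm1. Relative to the summed cluster reads of each library, its level in replicate A was 5.98-fold that of ddm1 rdr6 (95% counting interval 3.69 to 10.1) and 5.08-fold that of ddm1 pol V (3.40 to 7.76). Replicate B had 725 reads there, and its log2 ratios of 2.66 to ddm1 rdr6 and 2.42 to ddm1 pol V were close to those of replicate A, 2.58 and 2.34. Both double mutants had 1 model at the locus, of 4 exons, 1707 nt and a last intron of 501 nt. Replicate A had this form with 83 reads and a form of 504 nt with 10 reads, in which the last intron was 234 nt long and which ended at the shared 32 bases. Replicate B had the 501 nt intron in its largest model (576 reads) and a 509 nt form with the 234 nt intron (38 reads). With 21 and 34 reads in all, a share of the size seen in replicate A could have stayed under the minimum of 10 reads in both double mutants.

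The 4 loci of the copy group had models of 507 to 519 nt in replicate A, with 3 or 4 exons, and all 4 were pericentromeric. AT3TE45975 had 23 reads in replicate A, AT1TE52795 had 12 and AT4TE08355 had 12, with no model of these 3 loci in ddm1, ddm1 rdr6 or ddm1 pol V. AT2TE25540 had 16 reads in replicate A and 37 in ddm1 pol V. Summed over the group, the models held 63 reads in replicate A, 37 in ddm1 pol V and 525 in replicate B, and ddm1 rdr6 had no model. The group therefore took 2.72% of the cluster reads of replicate A and 0.860% of those of ddm1 pol V. These shares restate in part how the group was picked, since 3 of its loci had no model in the double mutants by their class. Up to 9 reads per locus could be uncounted there. At AT2TE25540, the only member with models in both libraries, the scaled level in replicate A was 0.803 of that of ddm1 pol V (0.417 to 1.48). Copies were 87.8% to 97.8% identical, so a read could be placed at the wrong copy. AT3TE53850 aligned with AT1TE52795 over 357 nt at 84.6% identity, the only other locus of the 157 that aligned with the group over 80 nt or more.

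Over all 157 loci, 53 (33.8%) had models in all 3 libraries, 12 (7.64%) in the triple mutant only and 21 (13.4%) in both double mutants but not the triple. A further 4 loci were shared by the triple mutant and ddm1 rdr6, and 11 by the triple mutant and ddm1 pol V. The double mutants had 14 (ddm1 rdr6) and 42 (ddm1 pol V) loci of their own. Shared loci took most reads. Those of all 3 libraries took 82.4% of the cluster reads of replicate A, 79.5% of those of ddm1 rdr6 and 66.6% of those of ddm1 pol V. Loci of the triple mutant only took 7.29% of its reads (169 reads), and loci of both double mutants but not the triple took 11.7% and 13.2% of the reads of ddm1 rdr6 and ddm1 pol V.

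**Figure D1:**
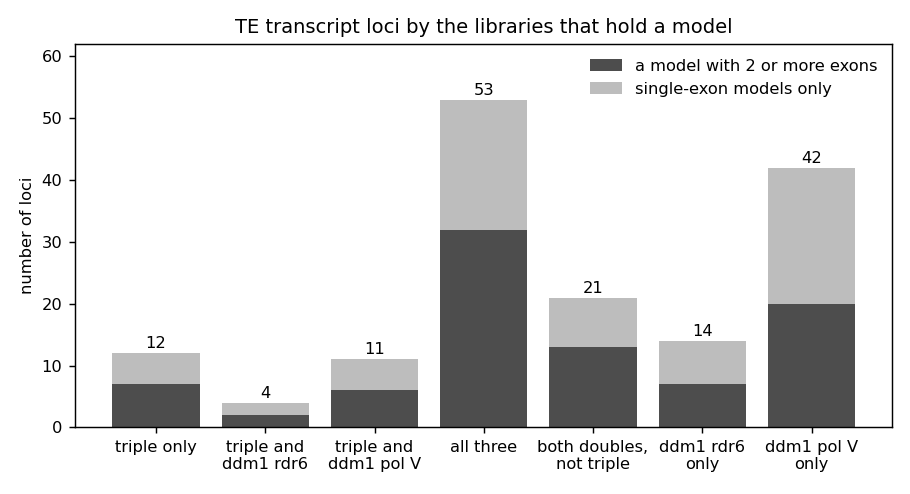
Bars give the number of loci (y axis) in each combination of the 3 round 1 libraries (x axis), with loci that had a model of 2 or more exons in dark grey and loci with single-exon models in light grey. The class shared by all 3 libraries was the tallest at 53, and 12 loci stood in the triple mutant only against 21 in both double mutants but not the triple.

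Shares of spliced and of pericentromeric loci had overlapping counting intervals in the 3 classes. A model with 2 or more exons was present at 7 of the 12 triple-only loci (58.3%, exact 95% interval 27.7 to 84.8), at 32 of the 53 shared by all 3 libraries (60.4%, 46.0 to 73.5) and at 13 of the 21 of both double mutants (61.9%, 38.4 to 81.9). Pericentromeric loci, in 500 kb bins with under 40% protein-coding bases, were 9 of 12, 41 of 53 and 18 of 21. The median length of the longest model was 550 nt at triple-only loci, 776 nt at loci of all 3 libraries and 913 nt at loci of both double mutants. The longest model was taken over every model of a locus, which came from 1 library at triple-only loci. The 3 classes held 12, 194 and 48 models, so lengths, spliced shares and protein matches were not measured alike. A match to an annotated TE protein was found at 0 of 12, 6 of 53 and 5 of 21 loci. Of the matches at loci of all 3 libraries, 3 were to MuDR and 1 to CACTA proteins, DNA transposons, and of those at loci of both double mutants 3 were to CACTA. A model in ddm1 was present at 0 of 12, 31 of 53 and 7 of 21 loci, and a model in wt at 0, 4 and 0. Over all 157 loci, 87 were spliced, 122 were pericentromeric, 25 had a protein match (10 to CACTA, 8 to MuDR), 44 a ddm1 model and 5 a wt model. Since ddm1 had 1212 cluster reads, its lack of a model says little at loci near the minimum.

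The 12 triple-only loci all lay close to the read minimum. Their reads in replicate A ran from 10 to 23 with a median of 12, and 9 of the 12 had fewer than 15. AT3TE45975 (23 reads) and AT5TE46310 (21 reads) were the only ones with 20 or more. AT5TE46310, on chr5:13029561-13030141 (plus strand), was a single-exon model that belonged to a group of 10 copies, of which 9 had models in ddm1 pol V and 6 in ddm1 rdr6. AT5TE22990 had 19 reads in a single exon of 169 nt, at chr5:6349678-6349846 (minus strand), and overlapped AT5G19015. It was the only one of the 12 with fewer reads in replicate B, 11, than in A. AT2TE21295 had 14 reads in a model of 4 exons over chr2:5208405-5209579 (plus strand) and overlapped AT2G12710. AT5TE18885 had 13 reads in 2 exons and overlapped AT5G15990.

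The remaining triple-only loci had 10 to 12 reads. AT1TE14085 (chr1:4333430-4334082, minus strand, 12 reads) had 2 exons and overlapped the pseudogene AT1G12725. AT1TE44455 (11 reads, pseudogene AT1G36200) ended 640 nt upstream of the locus AT1TE44450 on the same strand. That locus had models in all 3 libraries and also carries the identifier AT1TE44455, so this TE was not triple-only by identifier. AT4TE09570 (11 reads, 3 exons) ran antisense to AT4G04170. AT3TE56700 had 11 reads, and AT2TE25020, the only one of the 12 that overlapped a protein-coding gene, AT2G14460, had 10. In all, 5 of the 12 overlapped a pseudogene and 6 no gene on the same strand, against 89 and 58 of all 157 loci. All 12 had a model in replicate B, with 11 to 151 reads, but so did 147 of all 157 loci. In replicate B 14 of 14 introns of the class recurred with the same ends. A close copy with a model in a double mutant existed for 7 of the 12, and for 69 of all 157 loci. When a copy group was counted once, 5 of 105 units remained triple-only and 0 of 19 copy groups did.

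**Figure D2:**
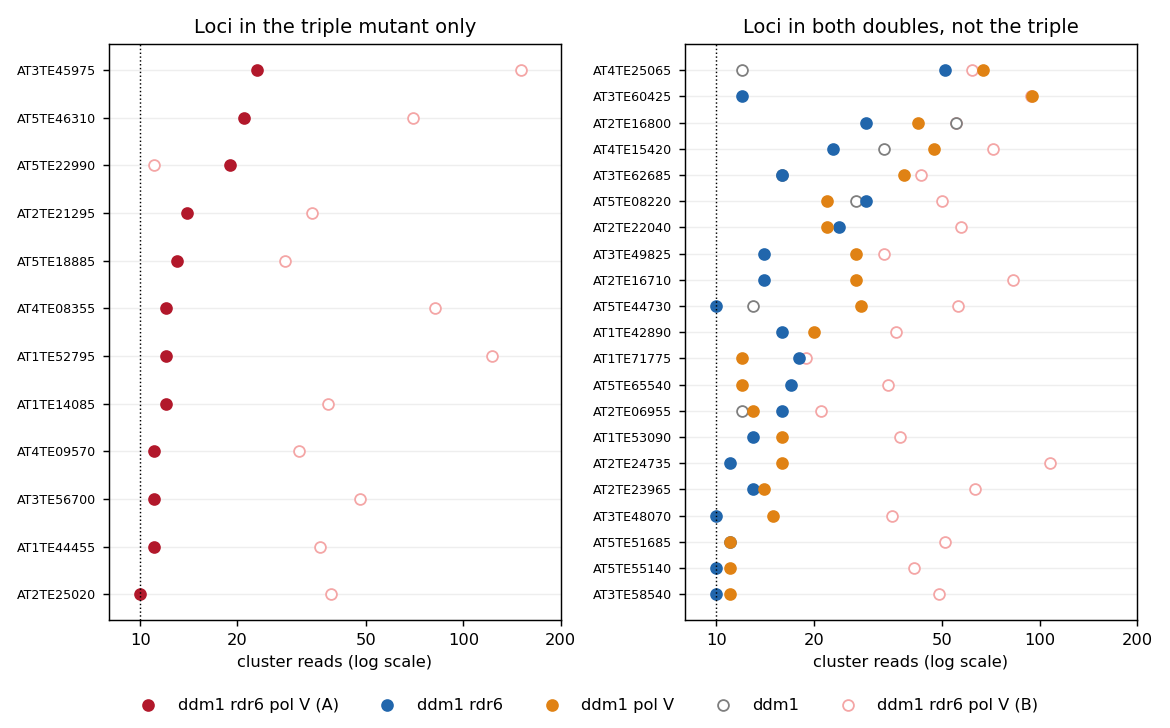
Each row is 1 locus, and each point gives the cluster reads of 1 library (x axis, log scale), with open points for ddm1 and replicate B and a dotted line at the minimum of 10 reads. A library without a point had no model there, and coinciding points overlie each other. The triple-only loci (left) have 10 to 23 reads in replicate A, and the loci of both double mutants but not the triple (right) have 10 to 51 reads in ddm1 rdr6 and 11 to 95 in ddm1 pol V.

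The 21 loci with models in both double mutants but not in replicate A reached higher read numbers as deposited, in libraries with more summed cluster reads. Reads ran from 10 to 51 with a median of 14 in ddm1 rdr6 and from 11 to 95 with a median of 20 in ddm1 pol V. The clearest was AT4TE25065 (chr4:5955240-5956074, minus strand), a transcript of 2 exons over the pseudogene AT4G09400, with 51 reads in ddm1 rdr6, 67 in ddm1 pol V, 12 in ddm1 and 62 in replicate B. Scaled to the summed reads of replicate A, its reads in ddm1 rdr6 and ddm1 pol V came to 37.8 and 36.1, well over the minimum of 10. Its intron of 126 nt is shown with the donor and acceptor bases in capitals.
AT4TE25065 donor, chr4:5955953-5955992, minus strand: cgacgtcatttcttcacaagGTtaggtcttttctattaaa
AT4TE25065 acceptor, chr4:5955827-5955866, minus strand: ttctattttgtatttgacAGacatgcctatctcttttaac
Its close copies AT3TE67445 and AT4TE10210 did have models in replicate A. The 3 loci together had 111 reads in replicate A, 227 in ddm1 rdr6 and 318 in ddm1 pol V.

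After the same scaling, the largest model stayed at 10 reads or more in both double mutants at 7 of the 21 loci, in 1 of them at 6 and in neither at 8. The other 6 of these 7 were AT1TE42890, AT2TE16710, AT2TE16800, AT3TE49825, AT3TE62685 and AT5TE08220. AT2TE16800 had 29 reads in ddm1 rdr6, 42 in ddm1 pol V, 55 in ddm1 and 55 in replicate B. AT5TE08220 had 29, 22, 27 and 50 in the same order. Both of its models in the double mutants began with TGCTG. AT3TE60425 was the most uneven of the class, with 12 reads in ddm1 rdr6 and 95 in ddm1 pol V, and 94 in replicate B. AT4TE15420, with 23 and 47 reads, also had 33 in ddm1 and 72 in replicate B. The remaining loci had fewer reads. AT5TE44730 had 10 reads in ddm1 rdr6 and 28 in ddm1 pol V, AT2TE24735 had 11 and 16, and AT2TE06955 had 16 and 13. AT1TE53090 had 13 and 16 reads, AT2TE23965 had 13 and 14, and AT3TE48070 had 10 and 15. AT3TE58540 and AT5TE55140 were closest to the minimum, each with 10 and 11. All 21 loci had a model in replicate B, as did 147 of all 157 loci. Reads of the 21 ran from 19 to 108 there, and 32 of 32 introns that ddm1 rdr6 had at these loci recurred.

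The loci missing from replicate A included long CACTA-like transcripts. CACTA elements are DNA transposons with a multi-exon transposase gene. AT1TE42890 (16 reads in ddm1 rdr6, 20 in ddm1 pol V, 36 in replicate B) and AT5TE65540 (17, 12 and 34) had models of 5 exons, and AT5TE51685 (11, 11 and 51) had 7. These 3 matched CACTA proteins, and AT1TE71775 (18, 12 and 19) matched a Copia protein, of a long terminal repeat retrotransposon. CACTA proteins were thus matched at 3 of the 21 loci of this class and at 10 of all 157 loci. AT1TE42890 and its 2 close copies had no model in replicate A, and 33 reads in ddm1 rdr6, 43 in ddm1 pol V and 88 in replicate B. AT2TE22040, with up to 6 exons, had 24, 22 and 57 reads. Scaled to the summed reads of replicate A, the reads in ddm1 rdr6 and ddm1 pol V came to 11.9 and 10.8 at AT1TE42890. They came to 12.6 and 6.46 at AT5TE65540 and to 8.15 and 5.92 at AT5TE51685, near or under the minimum of 10.

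At the 53 loci with models in all 3 libraries, levels in replicate A lay on both sides of those of each double mutant. Relative to summed cluster reads, the median log2 ratio of replicate A to ddm1 rdr6 was 0.04 (quartiles -0.45 and 0.57, SD 0.84 over loci), and that to ddm1 pol V was 0.33 (quartiles -0.24 and 1.08, SD 1.13). By a 2-fold rule, 7 of the 53 loci were above ddm1 rdr6 and 3 below, against a background of 12.3% above and 5.26% below over the 57 loci that both libraries held. Against ddm1 pol V, 15 of the 53 were above and 3 below, with a background of 26.6% above and 4.69% below over 64 loci. These shares were near their backgrounds, since the 53 loci made up most of each. The directions rest on the scaling. With reads as deposited, 4 of 57 loci were above ddm1 rdr6 and 12 below, 8 of 64 were above ddm1 pol V and 19 below, and the medians were -0.39 and -0.56. With replicate B in place of A, scaled to its own summed reads, the medians were -0.64 to ddm1 rdr6 and -0.50 to ddm1 pol V. Both ratios share the reads of replicate A, so they are given side by side for each locus.

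**Figure D3:**
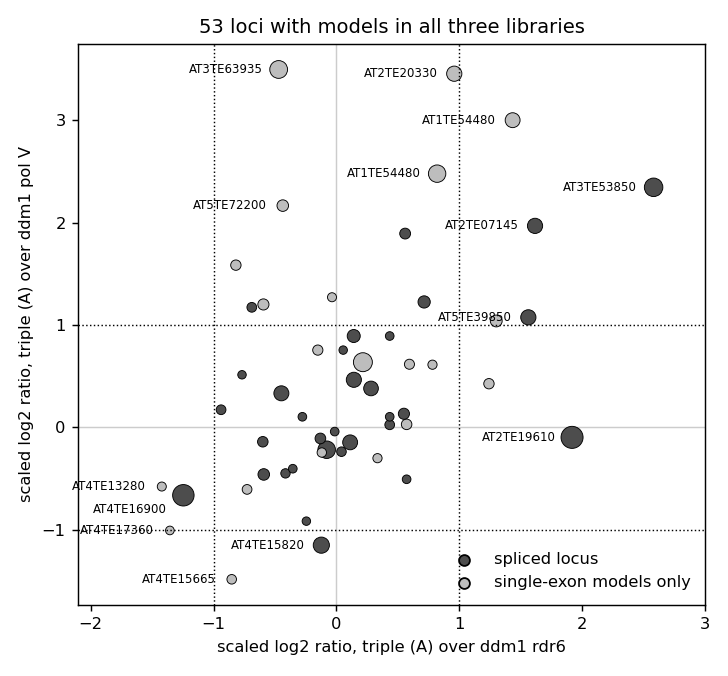
Each point is 1 of the 53 loci, with the scaled log2 ratio of replicate A to ddm1 rdr6 on the x axis and to ddm1 pol V on the y axis, area growing with the reads of replicate A, and dotted lines at 2-fold. Both axes contain the reads of replicate A. AT3TE53850 lies farthest to the right at 2.58, and the highest points, AT3TE63935 and AT2TE20330 at 3.50 and 3.45, stay within 2-fold of ddm1 rdr6.

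Loci above both double mutants by over 2-fold were AT3TE53850, AT2TE07145, AT5TE39850, AT3TE24460 and 1 of 2 loci named AT1TE54480. AT2TE07145, over the pseudogene AT2G04460, had 59 reads in replicate A, 26 in ddm1 rdr6, 28 in ddm1 pol V and 286 in replicate B. The scaled fold was 3.06 (1.90 to 5.06) over ddm1 rdr6 and 3.91 (2.46 to 6.37) over ddm1 pol V, and the log2 ratios of replicate B, 1.01 and 1.36, were on the same side. AT5TE39850, a short transcript of 2 exons and 260 nt, had 59, 27, 52 and 379 reads in that order. It was 2.95-fold above ddm1 rdr6 (1.84 to 4.84) and 2.11-fold above ddm1 pol V (1.43 to 3.12), and in replicate B its log2 ratios were 1.36 and 0.87. Neither locus had a model in ddm1. AT3TE24460 had 31, 17, 28 and 91 reads, and its log2 ratios of 1.30 and 1.04 in replicate A were -0.03 and -0.29 in replicate B. Its models in both double mutants, but not that in replicate A, began with the bases TGCTG that are counted further on. AT4TE17360 was the only locus below both by over 2-fold, with 11 reads in replicate A, 38 in ddm1 rdr6 and 41 in ddm1 pol V, and it was below both in replicate B too (log2 -2.06 and -1.71).

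Among the 53 loci of all 3 libraries, 4 of the 5 highest ratios to ddm1 pol V were at unspliced loci and the other was AT3TE53850. Of the 53 loci, 21 were unspliced. Outside them, AT1TE42225, with a spliced model in ddm1 pol V and no model in ddm1 rdr6, had a log2 ratio of 2.74. That ratio compared unlike models. The 36 reads of replicate A were in a single exon of 310 nt, and the 10 of ddm1 pol V in 5 exons and 2268 nt. Replicate B had 69 reads there, in models of 5 or 6 exons. AT3TE63935 is SADHU3-1, a member of the Sadhu family of retroposons, and had 85 reads in replicate A, 159 in ddm1 rdr6 and 14 in ddm1 pol V. Its scaled level was 11.3-fold that of ddm1 pol V (6.36 to 21.5) and 0.722 of that of ddm1 rdr6 (0.548 to 0.945). AT2TE20330 had 59, 41 and 10 reads, 11.0-fold over ddm1 pol V (5.56 to 24.0). The 2 loci of AT1TE54480, both over 2 kb long, had 81, 62 and 27 reads and 56, 28 and 13 reads. These loci differed between the triple mutant libraries. At AT2TE20330 replicate B had 356 reads and a log2 ratio to ddm1 pol V of 3.16, against 3.45 in replicate A. At AT3TE63935 it had 26 reads and -1.10 against 3.50, and at the AT1TE54480 loci 13 and 11 reads and -3.05 and -2.23 against 2.48 and 3.0. SADHU1-1 (AT2TE16940), within 2-fold of both double mutants in replicate A with 98 reads against 114 and 117, had 10 reads in replicate B. The loci past 2-fold in replicate A were also looked at in replicate B, among the 53 loci of all 3 libraries only. Replicate B was past 2-fold on the same side at 5 of 7 above and 3 of 3 below ddm1 rdr6. Against ddm1 pol V it was so at 6 of 15 above and 2 of 3 below. Replicate B was past 2-fold on the other side at 1 of the 7 and 4 of the 15.

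At several loci replicate A was near 1 of the double mutants and apart from the other. AT2TE19610, with 3 exons, had 137 reads in replicate A and 272 in ddm1 pol V, 0.935 of its scaled level (0.756 to 1.15), but 49 in ddm1 rdr6, a 3.77-fold difference (2.71 to 5.34). Replicate B gave log2 ratios of 1.63 to ddm1 rdr6 and -0.38 to ddm1 pol V. AT4TE15820, over the pseudogene AT4G06566, had 68 reads in replicate A and 100 in ddm1 rdr6, near equal after scaling (0.918, 0.664 to 1.26), and 280 in ddm1 pol V (0.451, 0.341 to 0.590). In replicate B its log2 ratios were 0.57 to ddm1 rdr6 and -0.45 to ddm1 pol V, against -0.12 and -1.15 in A, so the nearness to ddm1 rdr6 was not seen there. Among the 4 loci shared with ddm1 rdr6 alone, AT5TE39315 had most reads, 37 in replicate A, 31 in ddm1 rdr6 and 311 in replicate B. SADHU7-1 (AT3TE18450, 14 and 10 reads) and AT2TE13060 (12 and 13 reads) followed. Of the loci shared with ddm1 pol V alone, AT1TE42225 had 36 reads in replicate A and 10 in ddm1 pol V, AT2TE25540 had 16 and 37, and AT1TE39375 had 14 and 24.

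AT4TE16900, pericentromeric on chromosome 4, had the most reads summed over the 3 libraries, while AT2TE19610 had more in replicate A. It had 129 reads in replicate A, 413 in ddm1 rdr6, 379 in ddm1 pol V and 186 in ddm1. Its scaled level was 0.422 of that of ddm1 rdr6 (0.343 to 0.515) and 0.632 of that of ddm1 pol V (0.514 to 0.774), and replicate B was lower still against both (log2 -2.0 and -1.42). Its group of 6 copies had 168, 518 and 523 reads in replicate A, ddm1 rdr6 and ddm1 pol V, log2 ratios of -1.19 and -0.75. A group of 10 single-exon copies named by AT4TE15665 had 72, 126 and 336 reads, log2 ratios of -0.37 and -1.33. In both groups some models ended at a run of 10 or more A in the genome (14 of 19 and 8 of 25 models). There an oligo(dT) primer can anneal inside a transcript. No model of the other 17 groups ended so. Over all 343 models 32 did, among them those of the triple-only loci AT5TE46310 and AT3TE56700, members of these groups. Outside the groups, models at AT5TE08220, at SADHU7-1 and, in all 3 libraries, at AT5TE72200 also did. So did models of ddm1 rdr6 at SADHU3-1, SADHU3-2 (AT3TE60310) and SADHU5-1 (AT4TE03410). The part of such priming in these reads was not tested. The loci named for the highest and lowest ratios of the 53 also included AT4TE13280 (13 reads against 47 and 36), AT4TE50435 (17 against 44 and 28), AT4TE15665 (16 against 39 and 83) and AT3TE58655 (10 against 16 and 35), and all 4 were below ddm1 rdr6. The other loci with most reads differed little. AT3TE67445 (82 reads against 117 and 177), AT1TE44450 (57 against 105 and 84), AT1TE44630 (58 against 71 and 78) and the MuDR-like AT4TE67560 (56 against 70 and 115) and AT1TE27295 (54 against 60 and 77) were within 2-fold of both.

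**Figure D4:**
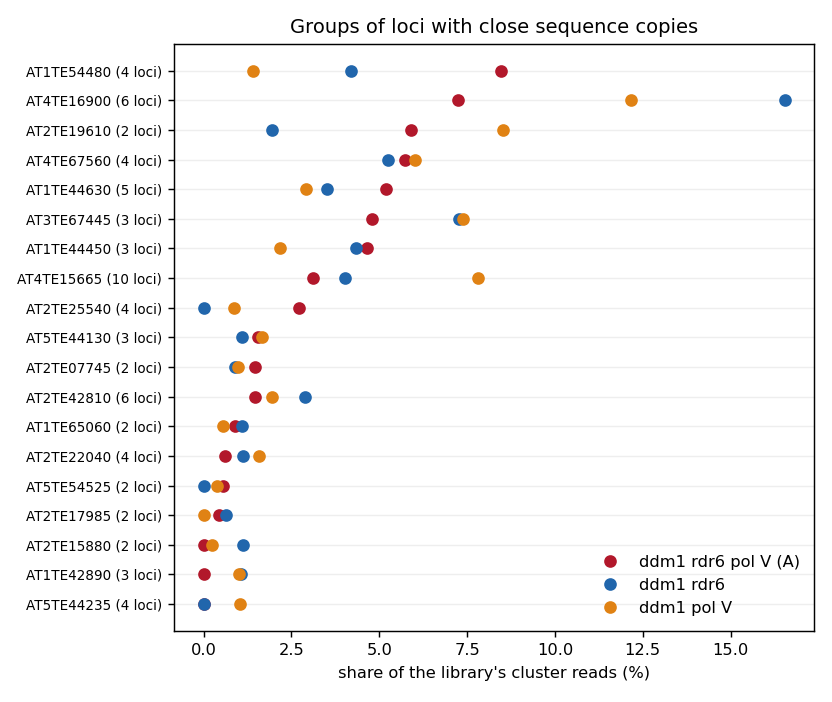
Each row is 1 of 19 groups of loci with close copies, and each point is the share of a library's cluster reads that the group took (x axis, percent). Coinciding points overlie each other. The AT1TE54480, AT2TE25540, AT1TE44630, AT1TE44450, AT2TE07745 and AT5TE54525 groups took a larger share in replicate A than in either double mutant. The AT4TE16900, AT4TE15665, AT3TE67445, AT2TE42810, AT2TE22040, AT1TE42890 and AT2TE15880 groups took a smaller one than in both.

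Transcript structure at shared loci was mostly the same. The median distance between the 5′ ends of the most read models was 0 nt against either double mutant, and between the 3′ ends it was 2 nt against ddm1 rdr6 and 4 nt against ddm1 pol V. Among the 27 loci where the most read model was spliced in both libraries, the intron chain was the same at 24 against ddm1 rdr6 and, again of 27, at 24 against ddm1 pol V. Of 52 introns of replicate A at these loci, 48 (92.3%, exact 95% interval 81.5 to 97.9) were found in a double mutant with the same ends. Those not found lay at AT2TE07745, AT3TE51150, AT3TE53850 and AT3TE53995. In the other direction, 46 of 61 introns that both double mutants had (75.4%, 62.7 to 85.5) were found in replicate A.

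Introns missing from replicate A included those of long transcripts. Models of 5 or more exons were present at 9 of 92 loci of ddm1 rdr6, 19 of 127 of ddm1 pol V and 3 of 80 of replicate A. Of the 9 loci with such models in both double mutants, replicate A had none at 4, a shorter model at 3 and one of 5 or more exons at 2, AT1TE44450 and AT1TE44630. In replicate B all 9 had a model of 5 or more exons. Of all loci with models in both double mutants, whatever their exon number, replicate A had a model at 53 and none at 21. Replicate A also had fewer summed cluster reads, 2317 against 3128 in ddm1 rdr6 and 4303 in ddm1 pol V, and the part of depth was not tested. Over the 68 loci that replicate A shared with a double mutant, its longest model was under 50% of the longest model of the double mutants at 9 loci and over 2 times as long at 1 (AT3TE53995). This limit was chosen after the values were seen.

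The 9 shorter models were of 2 kinds. At AT1TE42225, AT1TE52590, AT1TE65060, AT2TE17985, AT2TE23705 and AT3TE60280 the model of replicate A covered the end of the transcript, and its 3′ end lay within 13 nt of that in the double mutant. AT3TE60280 had 11 reads in a single exon of 183 nt in replicate A, against 11 reads in a 5-exon model of 1846 nt in ddm1 rdr6. AT2TE23705 had 11 reads in 201 nt, against 11 reads in a 6-exon model of 1765 nt in ddm1 pol V. AT1TE65060 had 10 reads in 2 exons and 553 nt, beginning in the fifth exon of a 6-exon model. At AT1TE52590 ddm1 rdr6 had a short model as well. At AT2TE20940, AT4TE16900 and AT4TE20245 the model shared the 5′ end of the longest model of a double mutant and stopped 1407 to 1536 nt earlier. At these 3 loci the short form was also the most read one in both double mutants, and the long form had 10 to 16 reads. AT4TE16900 had a model of 517 nt with 109 reads in replicate A and 322 in ddm1 rdr6, and one of 520 nt with 284 reads in ddm1 pol V. AT2TE20940 had 577 nt and 22 reads in replicate A, 584 nt and 20 reads in ddm1 rdr6 and 572 nt and 30 reads in ddm1 pol V. AT4TE20245 had 251 nt and 26 reads, 231 nt and 37 reads, and 218 nt and 21 reads in that order.

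**Figure D5:**
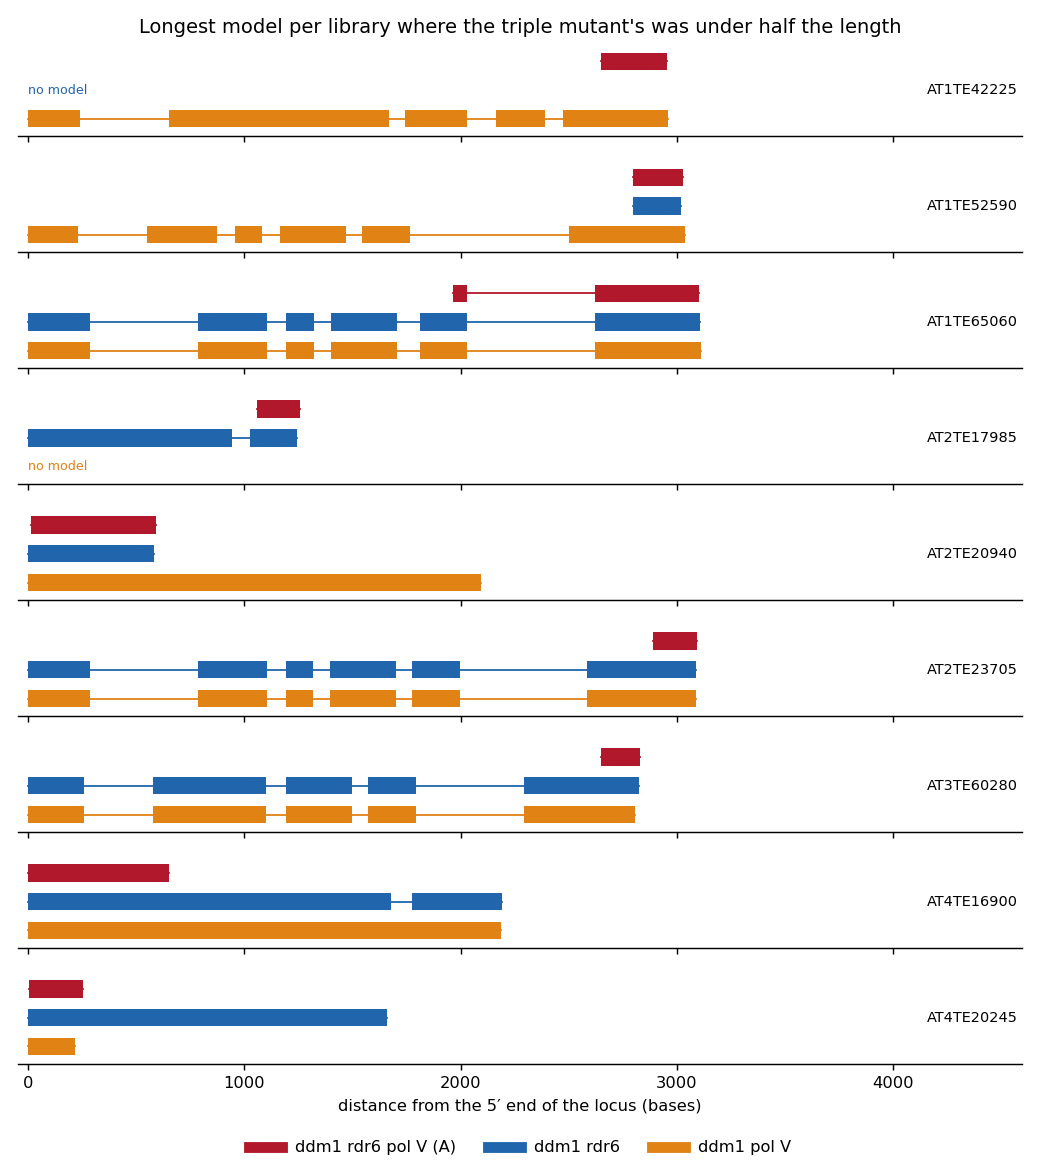
For the 9 loci, boxes are exons and lines introns of the longest model of each library, drawn to scale from the 5′ end of the locus (x axis, bases). At 6 loci replicate A covers the 3′ end, beginning inside the last exon except at AT1TE65060, where it begins in the fifth exon. At AT2TE20940, AT4TE16900 and AT4TE20245 it begins with the longest model of a double mutant and ends 1407 to 1536 nt earlier. The longest model of ddm1 rdr6 at AT2TE20940 and of ddm1 pol V at AT4TE20245 is as short as that of replicate A.

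Many short models began at the same bases. The genome sequence around the start is shown for the 4 of the 9 shorter replicate A models that begin with TGCTG, and the other 5 begin with other bases. Shown are 20 bases before and 40 bases from the first base, with the model's own bases in capitals.
AT1TE42225, chr1:12952925-12952984, plus strand: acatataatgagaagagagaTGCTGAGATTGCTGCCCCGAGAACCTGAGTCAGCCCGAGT
AT1TE52590, chr1:15951420-15951479, minus strand: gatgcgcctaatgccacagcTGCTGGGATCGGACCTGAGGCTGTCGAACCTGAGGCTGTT
AT2TE17985, chr2:4276483-4276542, minus strand: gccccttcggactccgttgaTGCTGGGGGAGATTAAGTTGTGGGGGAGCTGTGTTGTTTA
AT2TE23705, chr2:5821464-5821523, plus strand: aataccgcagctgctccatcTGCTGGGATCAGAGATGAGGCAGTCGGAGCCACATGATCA
This start was seen after the sequences had been printed, and was then counted on the strand of each model. Of 36 single-exon models under 320 nt in the 3 libraries, 17 (47.2%) began with TGCTG, against 1 of 307 other models (0.326%) and 0.0714% of positions on both strands of the nuclear genome. Models of 1 locus in several libraries and of close copies share sequence, so these are counts of models and not of independent starts. AT3TE51460 alone gave such a model in each of the 3 libraries. By library the share of short models that began with TGCTG was 7 of 13 in replicate A, 5 of 11 in ddm1 pol V, 5 of 12 in ddm1 rdr6, all of round 1, and 4 of 44 in replicate B. Without these models AT5TE22990 and AT5TE08220 had no model left. AT3TE24460 then stood in the triple mutant only and AT2TE23705 in both double mutants but not the triple. The counts of these classes were again 12 and 21, with 1 locus replaced in each, and loci of all 3 libraries numbered 49 in place of 53. In PCR-cDNA kits the 5′ end is added by a primer that pairs with bases at the end of the first strand, and whether primer pairing within transcripts set these starts was not tested.

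The hexamer AATAAA, the best known polyadenylation signal, was searched in the last 60 bases of each model on its own strand. It was present in 2 of 12 models of triple-only loci, in 40 of 194 (20.6%) at loci of all 3 libraries and in 2 of 48 (4.17%) at loci of both double mutants but not the triple. Over all 343 models the share was 16.0%, and over all 60-base windows of the nuclear genome it was 5.94%. Models of a locus and of copies share sequence, so these shares are descriptions of few independent elements.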

How the data were processed

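Per the file headers, the authors deposited transcript models made with pinfish, with exon start and end coordinates in the TAIR10 genome, and lists that pair each model with TE identifiers. Per the submitters' processing notes, reads were aligned with minimap2. The version and the cluster settings were not given in the sources used here. These deposited values are positions and identifiers (unit "other"), not counts per library.

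Models of replicate A, ddm1 rdr6 and ddm1 pol V were merged into loci by 1 bp or more of shared exon on the same strand, and each locus is named by its first TE identifier. Of 213 introns, 209 (98.1%) were GT-AG in TAIR10.1. Read ratios were scaled by summed cluster reads, with exact conditional binomial intervals, and shares have Clopper-Pearson 95% intervals. PCR reads carried no molecular identifiers. Copies were joined by BLAST+ 2.17.0 at 80% identity over 80% of the shorter model and 80 nt. TE proteins were searched at an e-value of 1e-05. Python 3.11.15, scipy 1.17.1 and matplotlib 3.10.9 were used, and the merging was tested on simulated loci.

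All triple-only loci and all loci of both double mutants but not the triple were named, with 3 loci shared with each double mutant. Of the loci of all 3 libraries, the 10 most read and the 5 highest and 5 lowest ratios to each double mutant were named. The loci, lists and rules were chosen with earlier results of these data known. The TGCTG starts, the many-exon loci and the relatives of the AT2TE25540 group were chosen after their values were seen. Alternatives covered the overlap rule, strand, read minimum, scaling, exon number and intron match.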

Additional observations from a re-analysis of the deposited data

Results flagged for a closer look

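With replicate A as the triple mutant, the number of loci changed in opposite directions with rdr6 added, by Pol V genotype. With Pol V intact, ddm1 rdr6 had 92 loci and ddm1 had 44, a difference of 48. With Pol V mutated, the triple mutant replicate A had 80 loci and ddm1 pol V had 127, a difference of -47. Replicate B had a model at 147 of the 157 loci, more than the 127 of ddm1 pol V, so the second direction turned with that library. With 1 library per genotype this difference was not tested. Cluster reads moved the same way, from 1212 to 3128 and from 4303 to 2317, and library depth cannot be told apart from genotype here.

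The second triple mutant library, which the comparison did not use, had a model at all 21 loci that both double mutants held and replicate A did not, while wt had a model at 0 of them. Over all 157 loci, replicate B had a model at 147 and wt at 5. Replicate B had 17106 cluster reads, against 2317 in replicate A. The part of depth in this was not tested.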

How the results depend on the processing

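Locus classes depended on the read minimum and on scaling. In place of 12 triple-only, 53 shared and 21 loci of both double mutants but not the triple, a minimum of 15 reads gave 4, 31 and 12, and one of 20 reads gave 3, 22 and 10. Raising the minimum of the double mutants in proportion to summed reads (to 13.5 and 18.6) gave 25, 38 and 7. Models of 2 or more exons gave 27 loci of all 3 libraries. Counting a copy group once (chosen after seeing the data) gave 5 triple-only and 11 of both double mutants. Replicate B in place of A (chosen after seeing the data) gave 199 triple-only and 0 of both double mutants, and 0 in place of 7 many-exon loci without such a model. Merging all 6 libraries, 80% overlap, TE identifiers, either strand, and leaving out TGCTG starts or A-run ends kept all 3 counts within 1.5 times. These are counts, and the loci in a class could differ.

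The median log2 ratio to ddm1 rdr6, 0.04, became -0.39 with reads as deposited, -0.0059 with the largest model per locus, 0.14 at loci with 20 or more reads and -0.64 with replicate B. That to ddm1 pol V, 0.33, became -0.56 with reads as deposited and -0.50 with replicate B. Loci past 2-fold against ddm1 rdr6, 10, became 16 with reads as deposited and 26 with replicate B. Spliced shares and intron matches kept within their intervals. No paired analysis was possible because each genotype had 1 library in round 1. The minimum of 10 reads per model and unknown library totals limit every absence.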
